A study of Drosophila melanogaster with 3 samples.

Results

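The weaker 3' UTR peaks of the Hr51-eGFP ChIP-seq experiment were 469 regions of the Drosophila melanogaster genome, each 420 bp wide. They were chosen by position and selected on signal, as follows. The start was a relaxed list of 30000 regions from the reads of all replicates pooled, deposited as peaks and background together. Of these, the 4316 that overlapped a peak of the reproducible set (the IDR list, which keeps peaks ranked alike between replicates) were dropped, leaving 25684. Below, "peak" means a region of such a list and not an established Hr51 site. Of the regions left, 904 had their summit, the base of highest signal, in an annotated 3' UTR. A further 333 were dropped because the summit also lay in coding sequence or a 5' UTR of some transcript, and 102 because a transcription start site (TSS) lay 500 bp away or less. The members were 1.83% of the weaker pooled peaks.

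The study measured where the nuclear receptor Hr51 sits on chromatin, in 1 group of 3 biological replicates. The material was whole embryos of both sexes, aged 0 to 24 h, from a transgenic line that stably expresses Hr51 with GFP at its C-terminus, and chromatin was sonicated to 200 to 800 bp. Immunoprecipitation used an antibody to GFP, although another label gives the antibody as Hr51. The 3 libraries shared 1 line, 1 tag and 1 collection window, the embryos held all tissues and ages together, and no control library was among the samples. A control experiment named in the labels was not analysed here, and read depth was unknown because the peak lists give no read counts.

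Hr51 belongs to the NR2E group of nuclear receptors, which bind DNA at short half-sites, in many cases as repressors, and in flies it is best known from the remodelling of mushroom body neurons. The 3' UTR is the transcribed stretch between the stop codon and the cleavage site of an mRNA. It carries the poly(A) signal and sites for RNA-binding proteins and microRNAs, and in embryonic neurons many fly genes use very long forms of it. A ChIP-seq peak there, where it stands out from background, reports protein near that stretch of DNA, not binding to the RNA.

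The sequences below come from strong members on several chromosome arms and show what kinds of short consensus sequence lay near their summits. Each is 30 bases of the fly genome Release 6 (dm6), 5′ to 3′ on the strand of the host gene, wholly inside the annotated 3' UTR. Capitals mark the sequence that was searched for.
CG9837: caaaataacagtAATAAAatacttaaaaaa
NetB: ccataacggaaaTAAACAtatatcaaatat
lwr: tcccaactatttCAGCTGatctggcaagtc
TAF1B: taaggggcagtgTTATCTccttggccgcga
ETHR: gccggcagctcaAATAAAaagcttagctca
Diap1: ggcggaatgtgtTAATTAtaagcgtagaaa
RpS26: tcatgtcaaatgTATAAAatcctataaaca

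The CG9837 sequence (chr3R:8808546-8808575, minus strand) and the ETHR sequence (chr3R:21263359-21263388, plus strand) hold AATAAA, the letters of the poly(A) signal. The match lay 46 bp downstream of the CG9837 summit and 12 bp upstream of the ETHR summit. Those summits were 928 bp and 223 bp from the annotated 3' end, and use of either match as a poly(A) signal was not tested. The NetB sequence (chrX:14689332-14689361, minus strand) holds the forkhead core TAAACA 20 bp upstream of the summit. The lwr sequence (chr2L:541118-541147, minus strand) holds the E-box CAGCTG 38 bp upstream. The TAF1B sequence (chr3R:10140385-10140414, minus strand) holds the GATA core AGATAA on the opposite strand, 20 bp downstream. The Diap1 sequence (chr3L:16038581-16038610, minus strand) holds the homeodomain core TAATTA 8 bp upstream. The RpS26 sequence (chr2L:18441383-18441412, minus strand) holds TATAAA 4 bp downstream. These matches are descriptions of the letters in the window. The half-site AAGTCA, typical of NR2E receptors, was within 50 bp of the summit in 2.35% of the members.

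The signal that chose the members was low. The deposited signal value had a median of 27.5 over the members, with a range from 21.1 to 73.4, while the lowest peak of the IDR list stood at 77.3. The deposited −log10 q, the caller's measure of how far a peak stands out from background, had a median of 0.225. It reached 2 or more in 12 members and was under 1 in 426, so most members stood out little from background by that measure. The pooled rank, with 1 as the strongest peak, ran from 3761 to 29966 with a median of 19351. Members took a growing share of the weaker peaks down the list, from 0.901% of those ranked 3001 to 6000 to 2.61% of those ranked 27001 to 30000.

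At the upper edge, the 3 members of highest signal were those of Bre1 (73.4), CG9837 (73.3) and NetB (70.1). Just above them, the weakest peaks of the IDR list in the same kind of place were in the 3' UTRs of Hr4 (79.9), chic (81.3) and CG33307 (83.5). The IDR list held 19 such peaks, of which CG7872 had the highest signal at 239. At the lower edge, fog, CG6659 and CG14441 had signals of 21.1 each. At the TSS limit, mRpL27 and CG5704 were 511 bp from the nearest TSS and CG13215 was 526 bp, while CG1943 at 489 bp, Usp30 at 488 bp and baf at 476 bp fell outside. The members farthest from any TSS were those of scrib at 18882 bp, a 3' UTR shared by CG12535 and Myc at 16646 bp, and Glut4EF at 15655 bp.

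The same rule applied to the 30000-region list of each replicate gave 703, 480 and 586 peaks, a mean of 590 ± 112 (SD, n = 3). Replicate 1 held the most and replicate 2 the fewest. Each of those replicate sets was looked up in the full 30000-region lists of the other replicates. A peak was counted as found when any summit of that list lay within 150 bp. On that count, 22.3% of the replicate 2 set was found in replicate 1 and 15.1% of the replicate 1 set in replicate 3, with the other 4 directions between these values. By position alone, 2.80% to 3.75% of the eligible 3' UTR bases lay within 150 bp of any summit of a replicate's full list.

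The members themselves were then looked up in each replicate's full list, again within 150 bp. Replicate 1 held 225 of the 469 (48.0%), replicate 2 held 212 (45.2%) and replicate 3 held 215 (45.8%), a mean of 46.3% ± 1.45 (SD, n = 3). Of the members, 44 (9.38%) were found in all 3 replicates, 137 in 2, 246 in 1 and 42 in none. Over all weaker pooled peaks 15.7% were found in all 3. The pooled reads are the replicates' own reads, so these shares describe the members and are not independent of their selection. A change of the matching distance moved the share found in all 3 by more than 1.5 times, to 2.77% at 50 bp and 17.7% at 300 bp.

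**Figure D1:**
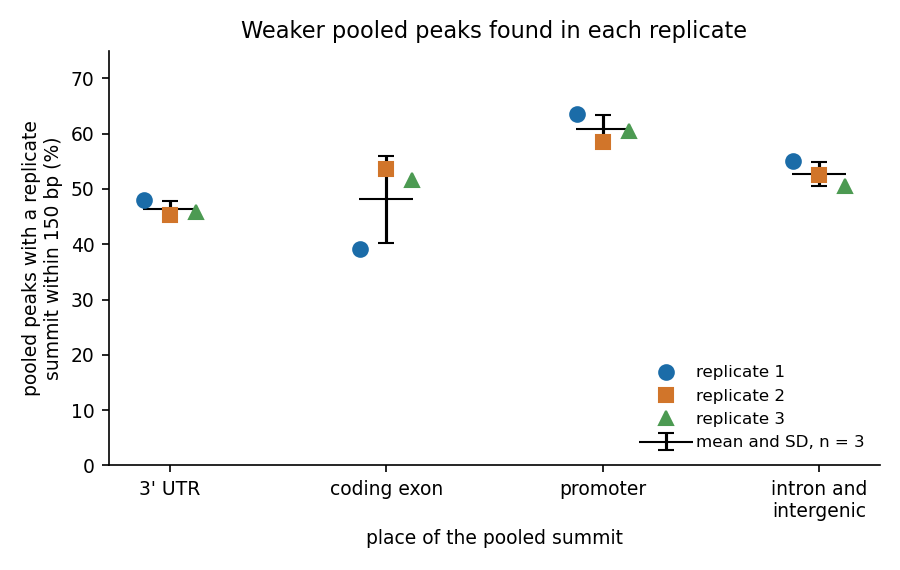
Percent of weaker pooled peaks with a summit within 150 bp in each replicate's list (y axis), by the place of the pooled summit (x axis). Points are replicates, the bar is their mean and the whiskers their SD (n = 3); the 3' UTR peaks sit between 45.2% and 48.0%, below the promoter peaks in every replicate.

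Recovery was lower in 3' UTRs than at promoters in 3 of 3 replicates. Weaker peaks within 500 bp of a TSS were found at 60.8% ± 2.53 (SD, n = 3), and the 3' UTR peaks differed from them by −14.5 ± 1.12 percentage points. Against weaker intron and intergenic peaks, found at 52.7% ± 2.21, the difference was −6.37 ± 1.39 points, also of 1 sign in 3 of 3 replicates. In both cases the exact two-sided sign-flip permutation test gave p = 0.25, the smallest p that 3 replicates allow. That test had been planned only against coding exon peaks. All these peaks were chosen by signal in the same pooled reads, so the p-values of recovery here support no conclusion. These differences take no account of rank, and 21 of 469 members but 1153 of 6911 promoter peaks ranked 3497 to 6000. There mean recovery was 88.9% for members, 89.3% for promoter peaks and 90.7% for intron and intergenic peaks. Members were above promoter peaks in replicates 1 and 2 of that bin. In ranks 12001 to 18000 the means were 50.6%, 55.3% and 54.0%, and in ranks 24001 to 30000 they were 29.3%, 35.2% and 32.1%. Coding exon peaks were found at 39.1%, 53.6% and 51.6% in replicates 1 to 3. The difference of the 3' UTR peaks from them was therefore 8.87 points in replicate 1, −8.44 in replicate 2 and −5.80 in replicate 3 (mean −1.79, exact sign-flip permutation p = 1). Without replicate 2 this mean was 1.54 points, and without replicate 3 it was 0.213 points, so its sign rested on those libraries.

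By rank, the share found in all 3 replicates was close to that of the other places in the upper bins. Among peaks ranked 3497 to 6000, 15 of 21 members (71.4%) were found in all 3 replicates, beside 70.5% of coding exon, 70.1% of promoter and 73.3% of intron and intergenic peaks. Among ranks 6001 to 12000 the shares were 30.8% for the members and 30.9%, 31.6% and 33.7% for the other places. In ranks 12001 to 18000, 4 of 106 members (3.77%) were found in all 3, against 6.43%, 7.34% and 6.92%. In ranks 18001 to 24000 it was 1 of 122 members and below that 0 of 142, so the 44 members found everywhere were nearly all from the upper ranks. Even so, 20 of the 44 had a deposited −log10 q under 1. The differences from coding exon peaks within single replicates were there in every rank bin: the members were above them in replicate 1 and below them in replicates 2 and 3 in all 5 bins. In ranks 6001 to 12000 replicate 1 held 74.4% of the members and 60.4% of the coding exon peaks, replicate 2 held 71.8% and 81.2%, and replicate 3 held 67.9% and 77.3%.

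**Figure D2:**
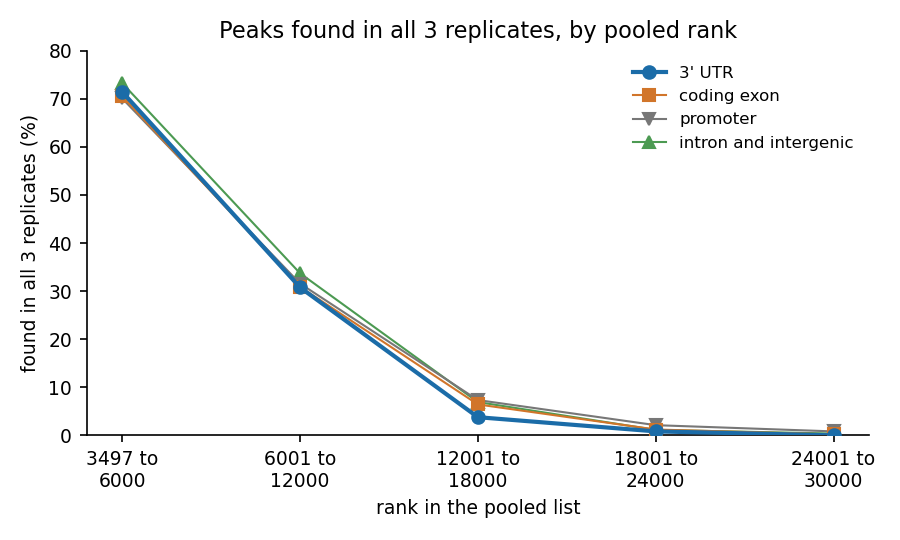
Percent of weaker pooled peaks found in all 3 replicates (y axis) in 5 bins of the pooled rank (x axis), for 3' UTR, coding exon, promoter, and intron and intergenic peaks. The 4 lines run close together, from 70.1% to 73.3% in the first bin to under 1% in the last.

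Where a member was found in a pair of replicates, its ranks there were loosely related. Spearman's rho was 0.297 over the 93 members found in replicates 1 and 2, 0.272 over the 89 in replicates 1 and 3, and 0.249 over the 87 in replicates 2 and 3. These are descriptions across members, which share libraries and depth.

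Of the 20 members of highest pooled signal, 14 were found in all 3 replicates, 5 in 2 and 1 in only 1. These calls depend on the 150 bp distance: within 50 bp, NetB was found in 1 replicate and CG9837, lwr, para, Diap1, Mob2, Cam, Ppa and CG17290 in 2. Bre1, the ubiquitin ligase for histone H2B, had its peak at rank 2912 in replicate 1, 6603 in replicate 2 and 5247 in replicate 3 (chr3L:5789768-5790187). CG9837 stood at 3059, 5728 and 2863 (chr3R:8808397-8808816). Both were fairly even across libraries. NetB, a secreted Netrin that guides axons, ranked 4859 and 2168 in replicates 1 and 2 and only 20605 in replicate 3 (chrX:14689117-14689536). The peak of lwr, the SUMO-conjugating enzyme, ranked 5664, 10813 and 2197 (chr2L:540884-541303). TAF1B, a subunit of the RNA polymerase I initiation factor, ranked 5994, 2918 and 8508 (chr3R:10140209-10140628). Replicate 3 held the weakest peak of NetB and TAF1B but the strongest of lwr.

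The peak of the sodium channel gene para was uneven, at ranks 2348, 14050 and 19978, with replicate 1 the high one. Its summit lay 58.0% of the way along an 8761 bp 3' UTR. ETHR, the receptor for ecdysis triggering hormone, ranked 8473, 3483 and 10136. Diap1, the inhibitor of apoptosis, ranked 4609, 6179 and 9671 in a short 3' UTR of 262 bp. The maternal RNA-localisation factor exu ranked 5978, 4881 and 9249. Mob2, a kinase co-activator, ranked 4419, 3881 and 16272, and the calmodulin gene Cam ranked 5590, 3016 and 16573. In both of these genes replicate 3 was the low one. Ppa, which encodes an F-box protein, was even at 4987, 4930 and 2963. Crag, an exchange factor for Rab proteins, ranked 5612, 8430 and 6429, and CG17290 ranked 5461, 10338 and 10813.

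The other 6 of these 20 were missing from a replicate. RpS26, a protein of the small ribosomal subunit, ranked 3314 and 4371 in replicates 1 and 2 and was not found in replicate 3. SC35, an SR splicing factor, ranked 4581 and 7163 in the same libraries. Myd88, the adaptor of the Toll receptor, ranked 6484 in replicate 1 and 1643 in replicate 2. CG16989 (9457 and 2574) and CG10222 (3860 and 6469) were found in replicates 1 and 3 only. CG1888, the sixth by pooled signal, was matched in replicate 2 alone, at rank 4701, though within 300 bp, or by any overlap of peaks, it was found in all 3. A second CG1888 member overlapped that one, with its summit closer to the stop codon, and was matched in replicate 1 alone, at rank 1879.

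**Figure D3:**
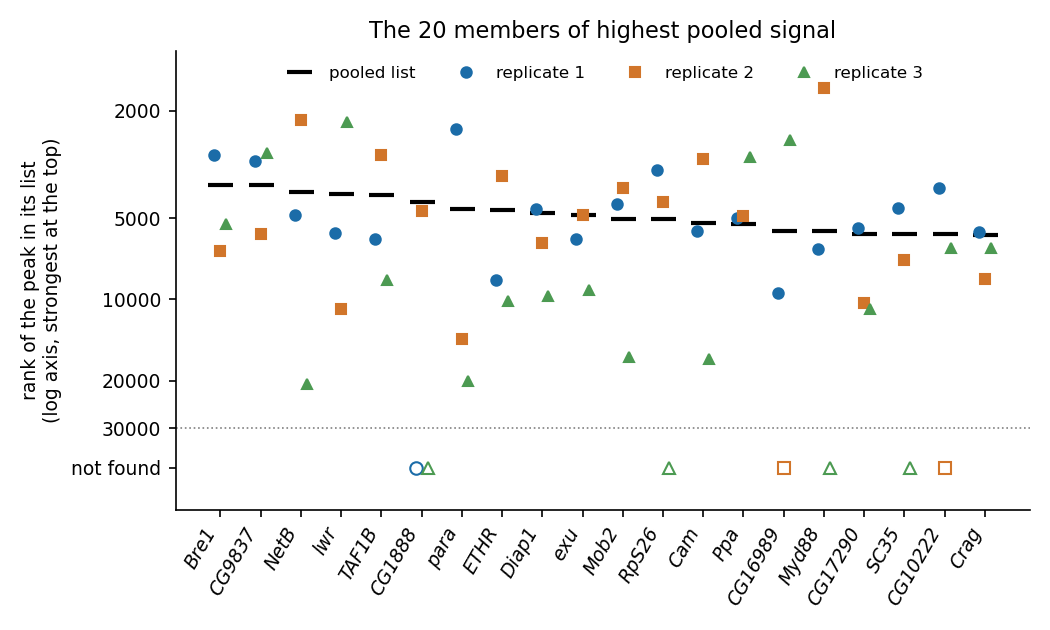
Rank of the peak (y axis, log scale, strongest at the top) in the pooled list and in each replicate's list for the 20 members of highest pooled signal (x axis, by host gene). Open symbols mark a replicate with no summit within 150 bp; 14 of the 20 have a filled symbol for all 3 replicates.

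The members lay in the 3' UTRs of 440 genes, which is 3.94% of the 11165 genes with any eligible 3' UTR sequence. Of these genes, 405 held 1 member, 32 held 2, Ppa held 3, corto held 4 and CG1888 held 5. Corto is a chromatin protein that works with Polycomb and trithorax group factors. Its 4 members had signals from 27.1 to 43.7 and none was found in all 3 replicates: the strongest ranked 6615 and 7151 in replicates 1 and 3, and each of the other 3 was matched in 1 replicate. The CG1888 members had signals from 31.9 to 66.4 over a 3353 bp 3' UTR, and each was matched in 1 or 2 replicates. Some members share sequence, since 30 overlapped another member, and 12 lay in the 3' UTRs of 2 genes at once.

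Long 3' UTRs held most members. In the quartile of genes with the least eligible 3' UTR (1 to 100 bp) 0.496% had a member, then 1.08%, 3.73% and 10.5% in the quartile from 604 bp up. Per megabase of eligible sequence the quartiles held 82.0, 69.6, 98.5 and 73.5 members, with no rise along the quartiles. Over the 5.93 Mb of eligible 3' UTR, the pooled members came to 79.2 per Mb, and the replicates' own sets to 119, 81.0 and 98.9 per Mb. Weaker coding exon peaks stood at 304 per Mb in the pooled list and at 227, 326 and 317 per Mb in the replicates. Each replicate value of the 3' UTR was below each of the coding exons. Weaker promoter peaks were at 381 per Mb and intron and intergenic peaks at 137 per Mb, so the 3' UTR had the lowest density of the 4 places in the pooled list. All of these densities follow from the rule's use of signal and position and carry no test.

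In the pooled list, arm 2R had 97.9 members per Mb, 2L had 85.7, 3R had 82.6, the X chromosome had 70.4 and 3L had 67.7. The order differed between the replicates' own sets: 3R was the highest of these arms in replicate 1 (138 per Mb) and 2R in replicates 2 and 3 (95.9 and 131), while X was the lowest in replicates 1 and 2 (88.4 and 69.0) and 3L in replicate 3 (79.0). Chromosome 4 held 2 members, or 20.7 per Mb, with 15 peaks in replicate 1, 2 in replicate 2 and 0 in replicate 3.

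Members sat all along the 3' UTR. The summit was a median 48.3% of the way from the stop codon to the 3' end, beside 50.4% for all eligible bases, and the replicates' own sets had medians of 50.9%, 38.7% and 46.7%. The first 10% of the 3' UTR held 67 members (14.3%), beside 9.83% of the eligible bases. The replicates' own sets had 10.8%, 17.5% and 15.02% there, so the surplus was small in replicate 1. The last 10% held 9.38% of the members, beside 10.04% of the eligible bases. In base pairs, 161 members lay within 200 bp of the stop codon and 119 within 200 bp of the 3' end. The median summit was 440 bp from the stop codon and 472 bp from the 3' end, beside 548 bp and 537 bp for eligible bases. The 3' UTR that held the summit had a median length of 1066 bp, shorter than the 1375 bp for eligible bases.

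**Figure D4:**
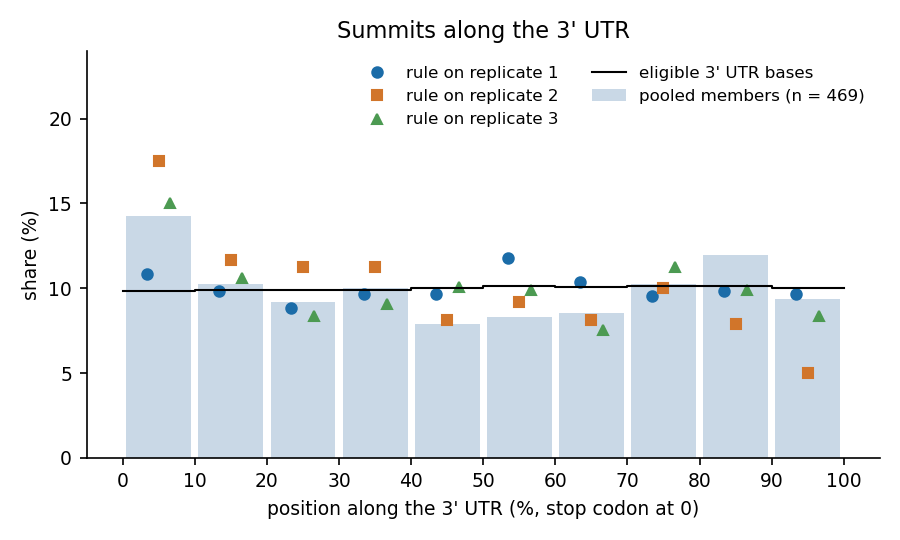
Share of summits (y axis, %) in 10 equal parts of the 3' UTR, from the stop codon at 0 to the 3' end at 100 (x axis). Bars are the 469 pooled members, points the sets that the same rule gave in each replicate, and the black line the share of eligible bases; the first part holds 14.3% of the members and 9.83% of the bases.

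The surroundings of the members were mixed. The first other protein-coding gene to reach past the 3' end of the host gene was on the opposite strand at 279 members and on the same strand at 190. That gene could overlap or contain the host. The same shares over all eligible 3' UTRs were not counted, so these counts describe the members only. In 385 members the summit lay in an exon of a single gene and in no annotated intron. Another gene on the opposite strand covered the summit in 24 members, and another gene on the same strand in 12. The nearest IDR summit was a median 8675 bp away, beside 7186 bp for weaker coding exon peaks and 12021 bp for intron and intergenic peaks, and in 16 members it was within 1000 bp. A host gene had an IDR peak at its promoter for 150 members. Counted by gene, 135 of the 440 host genes (30.7%) had such a promoter peak, against 20.4% of the other genes with eligible 3' UTR. By quartile of eligible length, from shortest to longest, the shares were 7.14% against 13.97%, 20% against 16.9%, 31.7% against 22.8% and 32.5% against 28.9%. The direction was thus the other way in the shortest quartile, which held 14 host genes.

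Of 24 lists of genes by function, 18 had a gene with a member, which can be read beside the 3.94% over all genes and the lengths of their 3' UTRs. Genes for neural RNA-binding proteins had a member in 4 of 19, namely fne, elav and Rbp9 of the ELAV family and the translational repressor pum, with 7 members in all. Their median eligible length was 5228 bp against 230 bp over all genes, and per megabase the list held 64.4 members, beside 77.8 over all genes when each member counts once for every host gene. The peak of fne ranked 4355, 16413 and 23924 in replicates 1 to 3, the stronger pum peak 4911, 15070 and 5355, and the stronger elav peak 14084, 28122 and 17667. All 3 were found in every replicate, at uneven ranks. The replicates' own sets hit 9, 4 and 6 genes of this list.

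Hox genes had a member in 3 of 8, with a median eligible length of 1711 bp and 236 members per Mb. These were Antp (signal 48.1), found in replicate 1 alone, Abd-B (28.3), found in 2 replicates, and Ubx (25.98), found in none. Segmentation genes (586 bp, 238 per Mb) had a member in 4 of 24, led by the transcription factor genes odd (36.9) and Kr (33.2), each found in 2 replicates, and ftz (28.7). Muscle and mesoderm genes (925 bp, 147 per Mb) had a member in 4 of 21, led by the adhesion gene sns (38.3) and the transcription factor genes twi (33.3) and Mef2 (29.9). Axon guidance genes (2089 bp, 53.8 per Mb) had a member in 4 of 28, led by NetB, with ena (30.6) and Fas3 (29.2) found in 1 replicate each. Of these 4 lists, only NetB among the genes named was found in all 3 replicates. The own sets of replicates 1 to 3 hit 2, 1 and 1 Hox genes and 3, 1 and 4 segmentation genes. They hit 3, 4 and 1 muscle and mesoderm genes and 5, 3 and 6 axon guidance genes.

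Among the general lists, cytosolic ribosomal protein genes had a member in 2 of 69 (RpS26 and RpL37A) and mitochondrial ribosomal protein genes in 2 of 55 (mRpL27 and mRpL47). The housekeeping list had Act5C and alphaTub84B of 29 genes, and the stronger Act5C member (43.4) was found in all 3 replicates. The cytoskeleton list, which shares those genes, had 3 of 18 with Act79B (38.1), at 474 bp and 375 per Mb from 4 members. Cell death genes had 1 of 9, Diap1. Ion channel genes had 2 of 20, para and Shab (29.8). Polycomb and trithorax group genes had 2 of 18, osa (30.3) and trx (23.1).

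Single genes stood for the other lists that had any, and none of these members was found in all 3 replicates. They were brp of the synapse (25.7), Tom of the Notch pathway list (25.3), Pka-C1 of learning (21.7), repo of glia (24.5), Cht7 of the epidermis (36.8) and CycA of the cell cycle (30.1). The other 6 lists had no gene with a member: nuclear receptors (0 of 19), heat shock and chaperones (0 of 14), maternal transcripts controlled through their 3' UTR (0 of 10), germline (0 of 12), circadian clock (0 of 17) and chromatin and insulators (0 of 10). Each of these lists had at least 1 gene hit in the set of a single replicate. For the nuclear receptors those counts were 1, 3 and 2. Hr51 itself had 64 bp of eligible 3' UTR and no member in the pooled list or in any replicate's set.

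Summits of the members were richer in G and C than the 3' UTRs around them. The 101 bp windows at member summits held 42.6% G and C, beside 35.4% over all eligible 3' UTR windows. The sets of replicates 1 to 3 held 39.8%, 43.8% and 40.3%, a mean of 41.3% ± 2.17 (SD, n = 3). All 3 lay above the background of all windows, by 4.36, 8.35 and 4.87 points (exact sign-flip permutation p = 0.25, the smallest p that 3 replicates allow). Replicate 2 had the richest summits. Against the mean over its own 3' UTR, a member was 4.25 points richer on average, and 307 of 469 members (65.5%) were richer. In the replicates' own sets this difference was 2.82, 5.48 and 2.64 points (mean 3.64 ± 1.59 SD, n = 3, exact permutation p = 0.25).

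The difference was smaller or of the other sign in the strongest peaks. Over the 12 members with a deposited −log10 q of at least 2, the difference of the summit from its own 3' UTR was −0.389 points. Over the 20 members of highest signal it was 1.73 points above, in 12 of 20, and over the 19 IDR peaks in the same class it was 0.332 points above, in 9 of 19. In the 44 members found in all 3 replicates it was 4.42 points above, in 29 of 44.

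Position moved with base composition too. From the first 20% of the 3' UTR to the last, all eligible windows fell from 39.3% to 32.1% G and C, and member summits from 47.6% to 38.2%. Members were above the eligible windows in each of the 5 parts. Members more than 200 bp from the stop codon were 2.90 points above their own 3' UTR. Centred 500 bp upstream of the summits, where 40.3% of the bases were coding, windows held 44.5% G and C, and 500 bp downstream they held 37.0%, so the summits lay between their flanks. Against the mean of both flanks the summits were 1.82 points richer in the pooled list, but in the replicates' own sets this difference was −0.353, 2.92 and −1.27 points (mean 0.431 ± 2.20 SD, n = 3), which is within the spread between replicates. With flanks centred 250 bp away the pooled value was 0.681 points. Other places had a surplus over the average of their own class as well: 5.66 points at weaker coding exon peaks, 3.29 points at promoter peaks and 2.56 points at intron and intergenic peaks, beside 7.17 points for the members. The order of the members and the coding exon peaks turned in replicate 3, where the members were 4.87 points and the coding exon peaks 5.16 points above their classes. It also turned against the flanks, where pooled coding exon peaks were 11.3 points, promoter peaks 3.30 points and members 1.82 points richer at the summit. The part of base composition in recovery from sequencing was not tested.

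**Figure D5:**
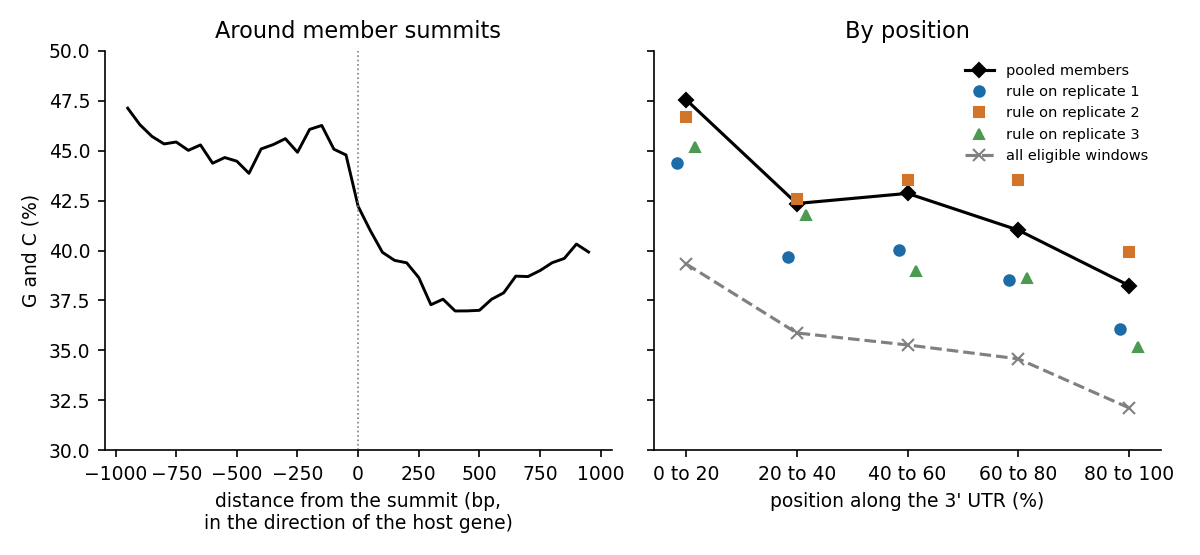
Percent G and C (y axes). Left, over 51 bp windows by distance from the member summit (x axis, bp, in the direction of the host gene); right, at summits in 5 parts of the 3' UTR (x axis, %), for pooled members, the sets of each replicate and all eligible windows. Members start at 47.6% and end at 38.2%, above the eligible windows at 39.3% and 32.1%.

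No short sequence passed the test of summits against flanks. Each of 22 consensus sequences was counted in the 101 bp at the summit and in windows of the same length 500 bp upstream and downstream. An exact McNemar test across members was used with Benjamini-Hochberg adjustment, keeping the larger p of the pair of flanks. By its rule, no call was possible where the summit count lay between the upstream and downstream counts, or equalled either of them. None was called higher (0%) or lower (0%), and none had an unadjusted p under 0.05. The half-site of the NR2E receptors, AAGTCA on either strand, gave the lowest p. It was in 11 summit windows (2.35%), in 25 upstream and 19 downstream windows (4.69% on average, unadjusted exact p = 0.200), and in 4.62% of all eligible windows. The sets of the replicates had it in 4.27%, 5% and 3.24% of summits. The general nuclear receptor half-site AGGTCA was in 3.20% of summits, 2.88% of flanks and 1.75% of eligible windows.

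The consensus sequences printed above did not pass the test against the flanks either. The poly(A) signal AATAAA on the sense strand was in 12.4% of summits, 12.6% of flanks on average and 17.3% of eligible windows. Its flanks were unlike, with 36 upstream and 82 downstream windows beside 58 at the summit. The forkhead core TAAACA, on either strand as for the next ones, was in 11.1%, 10.3% and 14.3%. The E-box CAGCTG was in 5.54%, 3.62% and 2.09%, the GATA core AGATAA in 4.69%, 4.90% and 6.64%, and the homeodomain core TAATTA in 5.54%, 7.36% and 9.34%. TATAAA was in 14.3%, 13.8% and 19.8%, with 46 upstream and 83 downstream windows beside 67 at the summit. Apart from the E-box, each of these was less common at summits than over all eligible windows. Those less common are rich in A and T, and summits were 7.17 points richer in G and C than eligible windows. The part of base composition in these shares was not tested. Sense-strand elements of 3' UTRs showed no difference that passed either. The Pumilio element TGTANATA was in 3.41% of summits and 3.09% of flanks, and the AU-rich TATTTAT was in 5.12% and 4.69%. Of the sequences of promoter factors, GAGAGAG was in 2.13% of summits, 1.49% of flanks and 1.32% of eligible windows, and the DREF and BEAF site TATCGATA was at 0 of 469 summits.

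Over all 2080 sequences of 6 letters, taken with their reverse complements, 0 were called higher (0%) and 0 lower (0%) after adjustment by the same exact McNemar test, and 20 had an unadjusted p under 0.05, of which 13 were higher at summits and 7 lower. ATCTAG had the lowest p, with 4.69% of summits against 1.07% of flanks (unadjusted exact p = 0.00151, adjusted p = 1). CCCACA followed with 8.96% against 3.52% (unadjusted exact p = 0.00223), and AGGTAA was the first of the lower ones with 0.853% against 3.94% (unadjusted exact p = 0.00434). These p-values are across peaks of 1 pooled list, which are not replicates.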

How the data were processed

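Peak lists of 3 replicates and of their pooled reads were used as deposited, in dm6 coordinates. The authors' signal column holds each peak's signal value and another its −log10 q; the deposited lists have no read counts, so depth is unknown and no common scale links the lists. Each relaxed list holds 30000 regions, and a list thresholded by the irreproducible discovery rate was also used, per the deposited README text. Aligner, peak caller and settings: not given in the sources used here. Lists in dm3 coordinates, 5 in number, were not used. Annotation was Ensembl 115 (BDGP 6.54), and sequence was the RefSeq copy of Release 6. Computation used Python 3.11.15, numpy 2.4.6, pandas 2.3.3, scipy 1.17.1 and matplotlib 3.10.9.

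An eligible base met the position rule: in a 3' UTR, in no coding sequence or 5' UTR, over 500 bp from every TSS. A member counted as found in a replicate with a summit within 150 bp. Members and gene lists were chosen with earlier results of these data known. Genes named are those of the 20 members of highest signal, genes with 3 or more members, up to 3 per list with a member, Hr51, and members at the limits of the rule; fog, CG6659, CG14441, CG7872 and Rbp9 were named after their values were seen. In the lists, 23 symbols had no match. The labels say biological replicates, 1 group of 3, and do not give separate collections. The McNemar test was tried on simulated windows with the same base composition at summits and both flanks. The flanks of the members differ in composition, so the simulation does not show how readily the test calls a sequence there. Alternatives were other match distances, windows, flanks, TSS and q limits, and each replicate left out.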

Additional observations from a re-analysis of the deposited data

How the results depend on the processing

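Keeping only peaks with −log10 q of at least 2 left 12 members in 12 genes, 83.3% of them found in all 3 replicates. There the difference of the summit from its flanks was −1.82 points of G and C, where over all members it was 1.82, and from its own 3' UTR it was −0.389, where over all members it was 4.25 (the last comparison was chosen after seeing the data). The share found in all 3 replicates was 2.77% within 50 bp, 17.7% within 300 bp and 19.4% by any overlap of peaks. Only members found in all 3 left 45 genes. Leaving out each replicate, and asking for a match in both others, left 87 to 93 members (18.6% to 19.8%) in 87 to 94 genes. The mean difference in recovery from coding exon peaks ran from −7.12 to 1.54 points, changing sign without replicate 2 and, at 0.213, without replicate 3. The cause was not tested. Counts of consensus sequences and of 6-letter sequences called were 0 under every setting run. Where few members were left, as with the 12 at the q limit or the 44 found in all 3, a call was hard to reach after adjustment. A count of 0 there says little. With each replicate left out, the summit differed from its flanks by 0.139 points of G and C (without replicate 2) to 3.64. From its own 3' UTR it differed by 2.71 points (without replicate 2) to 5.78. No paired analysis was possible because there was 1 group, so no groups share replicate numbers; differences between places were taken within each replicate. Depth could not be weighed without read counts.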

Other observations

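Which members a replicate held differed with base composition. Split in 3 by G and C at the summit, the members gave different shares. Of the 170 lowest in G and C (up to 38.6%), replicate 1 held 50%, replicate 2 held 30% and replicate 3 held 51.2%. Of the 148 in between the shares were 54.7%, 45.9% and 38.5%. Of the 151 highest (47.5% and above) the shares were 39.1%, 61.6% and 47.0%. The share in replicate 2 went up over the 3 sets, that in replicate 1 was highest in the middle set and lowest in the last, and that in replicate 3 was lowest in the middle. Weaker coding exon peaks, split in 3 the same way, from lowest to highest, were found at 51.8%, 53.8% and 55.6% in replicate 2, and at 39.9%, 37.9% and 39.7% in replicate 1. In replicate 3 they were found at 42.4%, 53.4% and 60.1%. The pooled members found in replicate 2 had 45.1% G and C at the summit and those not found had 40.5%. The part of library preparation in these values was not tested. This split was chosen after seeing the data.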
